A study of Oryza sativa with 4 samples.

Results

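The genotype by time interaction under water was read from the shoots of 2 rice lines, as the gap between 6-day and 1-day shoots in M202(Sub1) set against that gap in M202. M202(Sub1) is a line of the japonica cultivar M202 that carries the introgressed submergence tolerance locus Sub1, and M202 is the intolerant cultivar itself. Seedlings 18 days old, grown in soil, were placed completely under water in a greenhouse, and shoots were taken after 6 days or 1 day. The 4 groups are M202(Sub1) at 6 days, M202(Sub1) at 1 day, M202 at 6 days and M202 at 1 day, with 1 Affymetrix rice array each and 4 arrays in all. Every group was submerged, so no value here compares wet with dry plants, and an introgressed segment carries further donor genes beside Sub1.

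Levels are log2 signals summarised with RMA, a method that corrects background and combines the probes of a set. For each gene the time difference is the level at 6 days minus that at 1 day within 1 line. The interaction value is the time difference in M202(Sub1) minus the time difference in M202. It equals the genotype difference at 6 days minus that at 1 day, so a constant offset between the lines drops out of it. A positive value means that the step between 1 day and 6 days was more upward, or less downward, in M202(Sub1). All 4 arrays enter it, and 15426 of the 17905 genes with a probe set were kept because their highest level reached 5.51, the median of all values. With 1 array a group, nothing was tested, no spread between plants is known, and "higher" and "lower" describe these arrays.

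Deep water cuts gas exchange and light, and a submerged rice shoot lives on stored carbohydrate and fermentation. Intolerant rice is known to spend these stores on elongation, whereas Sub1 rice is known for quiescence, in which elongation is held back until the water recedes. Sub1 acts through ethylene-responsive transcription factors, and abscisic acid, jasmonate and defence signalling are known to interact with the submergence response.

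The interaction value was at log2 1 or more, a 2-fold difference between time differences, in 648 genes, which is 4.2% of the genes kept. It was at -1 or less in 246 genes, or 1.59%, so genes past 2-fold in either direction made up 5.8%. At 4-fold the counts were 76 and 32, and at 8-fold they were 15 and 10. The median over all genes kept was 0.02, with quartiles of -0.19 and 0.27, and 52.1% of the genes lay above 0. The values were thus skewed to the high side, with a median near 0. Of the 2176 genes kept with an informative symbol, 121 were at 1 or more and 51 at -1 or less. Both shares are higher than those over all genes kept. The gene lists below were matched by symbol, so the shares of all genes set beside them are no exact base.

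The gene just past the upper threshold was LOC4331982 at 1.0001, and LOC4324218 at 0.9994 lay just short of it. At the lower threshold LOC4324065 at -1.0030 and LOC9271754 at -0.9991 were the nearest on each side. For the level floor the nearest genes were LOC4341377, whose highest level was 5.5144, and EP3A at 5.5137. In all, 437 genes lay within 0.1 of a 2-fold threshold, 180 of them past it, so membership is arbitrary for many.

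As technical background, the median log2 level of all probe sets lay between 5.48 and 5.53 on the 4 arrays. Of 123 control probe sets none had an interaction value past 1, and their values had a standard deviation of 0.24 and a range of -0.94 to 0.74. The 3' minus 5' signal of actin lay between 2.26 and 2.52. Of 4 green-tissue markers, rbcS and CAB2R were at 13.69 or above and RCABP69 at 12.21 or above on every array, while the probe set of RBCS1 was under the floor on all of them, as was that of the root gene Lsi2. Lsi1, another root gene, had 7.33 and 7.49 in M202(Sub1) at 6 days and 1 day and 7.46 and 8.13 in M202. In bulk shoots, fewer cells of a type and less RNA per cell cannot be told apart.

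How the lines moved with time differed between the 648 high and the 246 low genes. Among the high ones, the most frequent pattern was a gene at least 2-fold lower at 6 days in M202 and less than 2-fold apart in M202(Sub1), with 303 genes (46.8%). At a 4-fold threshold, used for the time differences as well, this pattern held 17 of 76 genes and was no longer the most frequent, since 23 were higher at 6 days in M202(Sub1) alone. In 90 genes both lines were at least 2-fold higher at 6 days, M202(Sub1) more so, and in 89 genes only M202(Sub1) was. In 116 genes neither line was 2-fold apart, in 44 both were 2-fold lower at 6 days, and in 6 the lines were 2-fold apart in opposite directions. As a base, 4.61% of all genes kept were at least 2-fold lower at 6 days in M202(Sub1) and 8.62% in M202, while 6.25% were higher in M202(Sub1) and 7.44% in M202.

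Among the 246 low genes, 97 (39.4%) were at least 2-fold higher at 6 days in M202 and less than 2-fold apart in M202(Sub1). Another 51 were 2-fold lower at 6 days in M202(Sub1) only, and 43 were 2-fold higher at 6 days in both lines, M202 more so. In 34 neither line was 2-fold apart, in 18 both were lower, and in 3 the lines went opposite ways. At 2-fold the commonest pattern on each side is thus a mirror image of the other, with the larger time difference in M202.

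**Figure D1:**
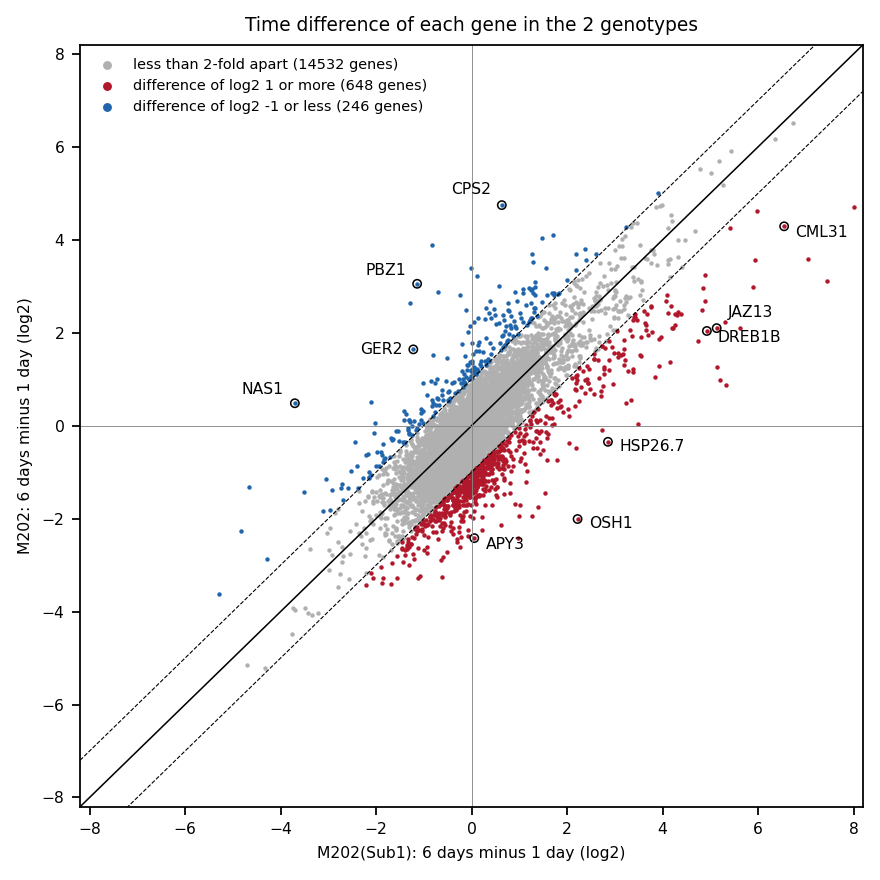
Time difference (6 days minus 1 day, log2) of each of the 15426 genes kept, with M202(Sub1) on the horizontal and M202 on the vertical axis. The solid line marks equal time differences and the dashed lines an interaction value of 1 or -1. The 648 genes right of the lower dashed line are red and the 246 left of the upper one are blue. PBZ1 and OSH1 lie in quadrants where the lines have opposite signs.

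The same values can be read at each time. Over all genes kept, M202(Sub1) was at least 2-fold higher than its parent at 6 days in 3.85% and lower in 2.18%, and at 1 day higher in 0.778% and lower in 1.01%. Of the 648 high genes, 383 (59.1%) had M202(Sub1) at least 2-fold above M202 at 6 days and less than 2-fold from it at 1 day. A further 180 were under 2-fold at both times. In 50 genes the gap lay at 1 day instead, with M202(Sub1) 2-fold lower then and the lines less than 2-fold apart at 6 days, and in 13 genes M202(Sub1) was the lower line at 1 day and the higher at 6 days. Of the 246 low genes, 124 (50.4%) were 2-fold apart at 6 days only and 24 at 1 day only, with M202(Sub1) the higher, and 8 crossed. The genotype gap was larger at 1 day than at 6 days in 14.7% of the high genes and in 23.6% of the low genes.

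The gene list with the lowest median interaction value was that of diterpenoid phytoalexins, antimicrobial compounds of which rice makes momilactones and phytocassanes. All 12 genes kept lay below 0, as did 47.9% of all genes, with 9 of them at -1 or less, against 1.59% of all genes, and the list median was -1.87. At 6 days minus 1 day the list had a median of 0.07 in M202(Sub1) and 2.35 in M202, and 1 of the 12 was 2-fold higher in M202(Sub1) but 10 in M202. Over all genes kept, 6.25% were 2-fold higher at 6 days in M202(Sub1) and 7.44% in M202. Only 4 of the 12 were above the floor on all arrays, and of these 1 was at -1 or less, with a median of -0.63. CYP76M7, KSL7 and KSL4 were kept only through the M202 array at 6 days, the array that also makes their values low.

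CPS2, the copalyl diphosphate synthase that starts the phytocassane branch, had levels of 6.11 and 5.48 in M202(Sub1) at 6 days and 1 day, against 8.23 and 3.48 in M202. The cytochrome P450 gene CYP71Z7 of the same branch had 6.51 and 7.22 in M202(Sub1), against 8.72 and 5.85 in M202. Both were thus lowest in M202 at 1 day and highest in M202 at 6 days, with both M202(Sub1) arrays in between, and their interaction values were -4.11 and -3.57. Both 1-day levels of CPS2 lie under the floor, and with such values raised to it the interaction value was -2.11. CYP76M7, a P450 that hydroxylates cassadiene, had 5.18 and 5.30 in M202(Sub1) and 7.55 and 5.06 in M202, so the M202 array at 6 days was the sole one above the floor. KSL7, the diterpene synthase of this branch, had 5.15 on both M202(Sub1) arrays and 6.19 and 4.42 in M202 at 6 days and 1 day.

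The momilactone branch was arranged much alike. CPS4, its copalyl diphosphate synthase, had 7.22 and 6.31 in M202(Sub1) at 6 days and 1 day, against 8.17 and 5.29 in M202. The probe set of CPS4 may cross-hybridise, by its name, and the gene had no value with such sets left out. For the P450 gene CYP99A2 the levels were 6.08 and 5.94 in M202(Sub1) and 7.62 and 5.31 in M202. The diterpene synthase KSL4 stood at 4.29 and 3.65 in M202(Sub1), and at 6.04 and 3.65 in M202, with 3 arrays under the floor. In each of these 3 genes the M202 array at 6 days was the highest of the 4, and their interaction values were -1.96, -2.17 and -1.74. MAS, the momilactone A synthase, was at -1.33, whereas CYP99A3 at -0.83 and CYP76M8 and CYP76M6 at -0.42 and -0.39 stayed under 2-fold. CYP701A8, a kaurene oxidase-like P450, had 6.59 and 4.89 in M202(Sub1) and 8.37 and 4.27 in M202, an interaction value of -2.40, and its relative CYP701A9 was at -1.88. Raising values under the floor to it brought KSL4, KSL7 and CYP701A9 to -0.52, -0.67 and -0.58, short of 2-fold. It also made the values of CYP701A8 and CYP76M7 smaller, at -1.78 and -2.04, as for CPS2.

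Of 22 defence genes, 9 were at -1 or less and none at 1 or more, and 20 lay below 0, with a median of -0.80. Over all genes, 1.59% were at -1 or less and 47.9% below 0. PBZ1, a pathogenesis-related protein of the PR10 class, had 10.37 and 11.51 in M202(Sub1) at 6 days and 1 day, against 12.31 and 9.26 in M202. Its order was reversed between the times, with M202(Sub1) lower at 6 days and higher at 1 day, and the interaction value of -4.19 equals an 18.3-fold difference. All 4 levels lay well above the floor. GER2, a germin-like protein, had 8.59 and 9.81 in M202(Sub1) and 11.86 and 10.22 in M202, so it was lower at 6 days in M202(Sub1) and higher at 6 days in M202.

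Chitinases, which degrade fungal cell walls, made up most of the rest. All 8 kept were below 0 and 5 were at -1 or less, against 47.9% and 1.59% of all genes. Their median was -1.51, and this subfamily was singled out after its values were seen. Cht2 had 7.65 and 7.59 in M202(Sub1) at 6 days and 1 day, against 9.12 and 6.90 in M202, and an interaction value of -2.16. In Cht5 the levels were 7.71 and 6.46 in M202(Sub1) and 8.49 and 5.56 in M202 (-1.68). Cht4 had 6.30 and 5.91 in M202(Sub1) and 6.99 and 4.30 in M202 (-2.30), and it was at -1.09 with values under the floor raised to it. In these 3 genes M202(Sub1) was below M202 at 6 days but above it at 1 day, whereas in Cht3 (-1.45) and Cht1 (LOC4342115), at -1.58, the lines were nearly equal at 1 day. Cht10 at -0.01, GER8 at -0.22 and the phenylalanine ammonia-lyase genes PAL06 at -0.03 and PAL at 0.07 had nearly equal time differences in both lines. The 10 control probe sets for the blast fungus Magnaporthe had median levels of 5.46 and 5.43 in M202(Sub1) and 5.36 and 5.51 in M202, and their part in the result was not tested. Germin-like and chitinase genes have close copies that a probe set can also detect, and how much of a signal this gives was not tested.

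**Figure D2:**
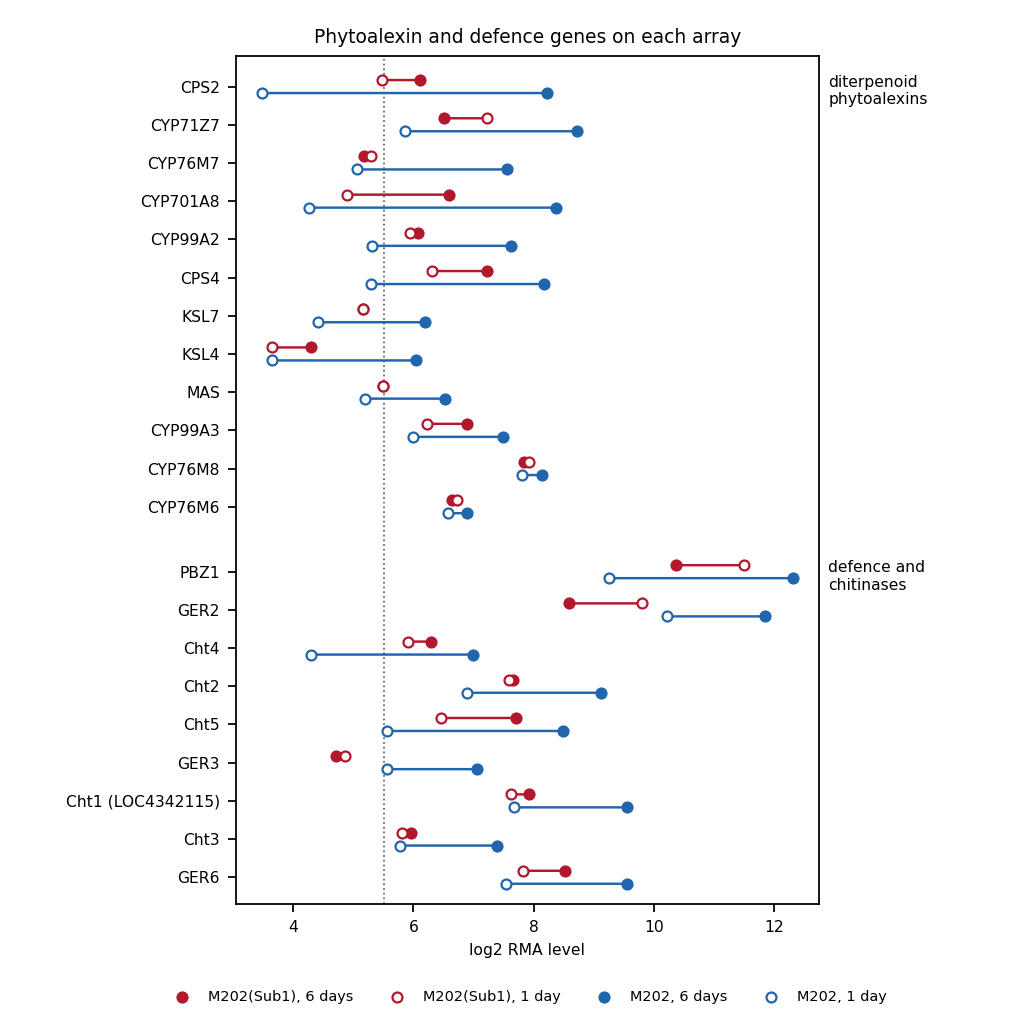
Log2 level on each array (horizontal axis) of the 12 phytoalexin genes and the 9 defence genes at an interaction value of -1 or less. Red marks M202(Sub1) and blue, below it, M202, with filled circles for 6 days, open circles for 1 day and the floor of 5.51 dotted. The blue lines are long and run to a filled circle at the right, while the red lines are short, and in PBZ1 and GER2 red and blue run in opposite directions.

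Genes of cell division lay at the other end. Of 24 cell cycle genes, 10 were at 1 or more and none at -1 or less, against 4.2% of all genes, and the median was 0.61. Their median time difference was -0.18 in M202(Sub1) and -0.78 in M202, and 3 were 2-fold lower at 6 days in M202(Sub1) but 11 in M202. Over all genes kept, 4.61% were 2-fold lower at 6 days in M202(Sub1) and 8.62% in M202, so the base also differed between the lines. The median genotype difference was 0.74 at 6 days, against 0.04 at 1 day, when the lines hardly differed.

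The cyclins divided into 2 patterns, which were distinguished after their values were seen. Cyclins of types A and B and the mitotic kinase CDKB2-1, which drive DNA synthesis and mitosis, were lower at 6 days in both lines, and in all 7 kept except CYCA1-4 (-0.14) by less in M202(Sub1). CYCB2 (LOC4342121) had 7.56 and 9.44 in M202(Sub1) at 6 days and 1 day, against 6.10 and 9.48 in M202, an interaction value of 1.49. CDKB2-1 had 8.29 and 9.16 in M202(Sub1) and 7.06 and 9.13 in M202 (1.19). The 1-day levels of these genes were nearly equal, and the M202 array at 6 days was the lowest.

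D-type cyclins, which link growth signals to entry into the cycle, had 4 of 9 genes at 1 or more, against 4.2% of all genes. CYCD2-2 had 7.85 and 7.04 in M202(Sub1) at 6 days and 1 day, against 5.28 and 6.73 in M202, an interaction value of 2.25. CYCD4-1 had 9.98 and 9.06 in M202(Sub1) and 8.17 and 8.69 in M202 (1.44), and CYCD4-2 had 9.20 and 8.64 in M202(Sub1) and 7.41 and 8.28 in M202 (1.42). These cyclins were higher at 6 days in M202(Sub1) and lower at 6 days in M202, without reaching 2-fold in M202(Sub1). The 3 members of the CYCD5 type, from -0.46 to -0.19, lay on the other side of 0. KRP5, an inhibitor of cyclin-dependent kinases, had 8.75 and 7.47 in M202(Sub1) and 7.36 and 7.71 in M202 (1.63), so genes that promote and that restrain the cycle were both among the high ones.

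Of 35 genes for DNA replication and histones, 10 were at 1 or more, against 4.2% of all genes, and none at -1 or less, with a median of 0.50. All 6 subunits of the replicative helicase, MCM2 to MCM7, were among them, from 1.04 to 1.62. Their time differences ran from -0.10 to 0.18 in M202(Sub1) and from -1.70 to -0.86 in M202. MCM4, for example, had 8.44 and 8.36 in M202(Sub1) at 6 days and 1 day, against 6.91 and 8.45 in M202. For MCM3 the levels were 8.63 and 8.73 in M202(Sub1), against 6.97 and 8.67 in M202, and for MCM5 8.44 and 8.33, against 6.89 and 8.19. In these genes 3 of the 4 arrays were close and the M202 array at 6 days stood apart, well above the floor.

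Other replication genes were less uniform. ORC1 and ORC3 of the origin recognition complex were at 1.46 and 1.84, but the M202 array at 6 days was under the floor for both. Raising values under the floor to it left ORC1 at 1.06 and ORC3 at 0.30. The probe set of ORC3 may also cross-hybridise, by its name. RPA, the protein that binds single-stranded DNA, had RPA32 at 1.20 and RPA70b at 0.9992, just short of the threshold, whereas RPA70a, RPA14 and RPA32B lay at -0.23, -0.28 and -0.20. The 5 RFC clamp loader genes ranged from -0.06 to 0.55 and the 5 histone H2B genes from -0.03 to 0.46, so none was 2-fold apart.

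Genes of meristem and organ identity had 8 of 30 members at 1 or more, against 4.2% of all genes, and none at -1 or less, with a median of 0.36. With all 4 values above the floor it was 4 of 25 with a median of 0.14, and with the floor at the 75th percentile 2 of 16 with a median of 0.07. Growth-regulating factors, transcription factors of young growing tissue, all lay above 0 (9 genes, 3 at 1 or more, median 0.89). Over all genes 52.1% lay above 0 and 4.2% were at 1 or more. The subfamily of growth-regulating factors was singled out after its values were seen. GRF1 had 8.42 and 8.81 in M202(Sub1) at 6 days and 1 day, against 6.21 and 8.41 in M202, an interaction value of 1.81. Its probe set may cross-hybridise, by its name, and it had no value with such sets left out. GRF10 had 7.35 and 7.24 in M202(Sub1) and 5.68 and 7.19 in M202 (1.61). As in the helicase genes, the M202 array at 6 days was the low one. The homeobox gene Roc3 of the epidermis was at 1.48, and its M202 level at 6 days was under the floor.

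OSH1, the KNOX gene that keeps the shoot meristem undifferentiated, had 5.97 and 3.76 in M202(Sub1) at 6 days and 1 day, against 4.10 and 6.11 in M202. The lines were in opposite order at 6 days and 1 day, and the interaction value was 4.23. None of these levels is far above the floor and 2 lie below it. With values under the floor raised to it the interaction value was 1.05, while it was 6.48 once probe sets that may cross-hybridise, by their names, were left out. OSH71, another KNOX gene, had 5.35 and 3.84 in M202(Sub1) and 3.54 and 4.99 in M202 and was thus under the floor throughout, and OSH43 was at -0.56. YABBY5, of a family that patterns lateral organs, had 6.49 and 5.59 in M202(Sub1) and 4.99 and 6.69 in M202 (2.59). The 4.99 lies under the floor, and the value was 2.07 with that level raised to it. Of the dividing-cell markers, CYCB1-1 and PCNA were at 0.67 and 0.76, and the mean level of that marker list was 7.73 and 8.71 in M202(Sub1) and 6.88 and 8.78 in M202. How much of the division signal comes from the share of meristem in each sample was not tested.

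**Figure D3:**
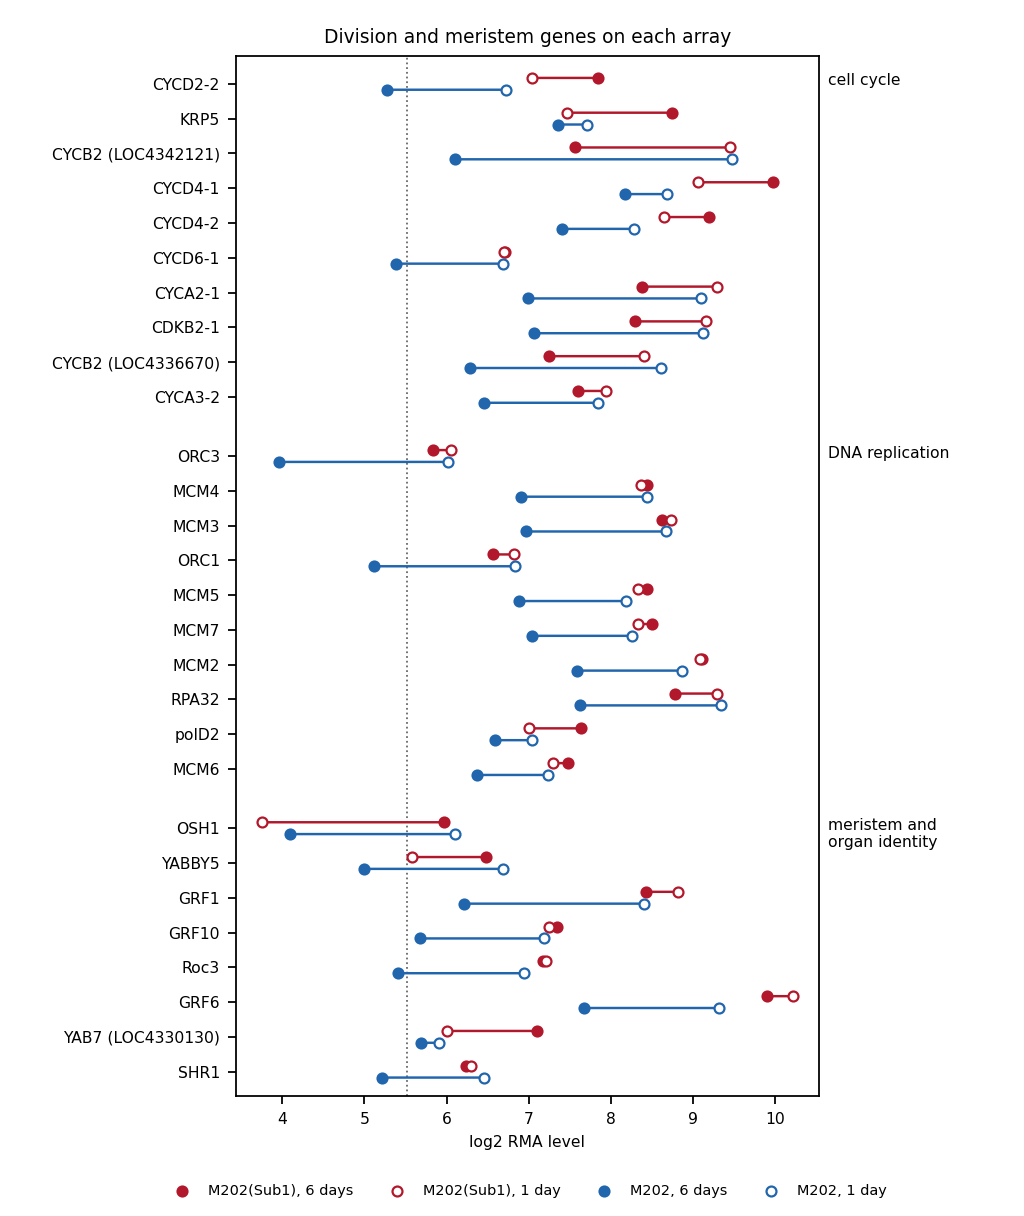
Log2 level on each array (horizontal axis) of the cell cycle, DNA replication and meristem genes with an interaction value of 1 or more. Red marks M202(Sub1) and blue, below it, M202, with filled circles for 6 days, open circles for 1 day and the floor of 5.51 dotted. In the replication genes the 3 circles other than M202 at 6 days lie close together, as in MCM4 at 8.36 to 8.45, and the filled blue circle lies to their left at 6.91.

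DREB1 transcription factors of the cold and drought response had a median of 2.22 over the 5 genes kept. This subfamily was singled out after its values were seen. DREB1B and DREB1E were at least 2-fold higher at 6 days in both lines, and DREB1G in M202(Sub1) only. Of 7 DREB genes kept, 4 were at 1 or more, against 4.2% of all genes, all of type DREB1, and 3 after quantile normalization or median centring, which left DREB1A a little under it. DREB1B had 11.27 and 6.35 in M202(Sub1) at 6 days and 1 day, against 9.58 and 7.54 in M202, an interaction value of 2.89. DREB1E had 9.91 and 6.53 in M202(Sub1) and 7.98 and 6.81 in M202 (2.22), and DREB1G had 8.26 and 5.03 in M202(Sub1) and 5.72 and 5.24 in M202 (2.76). In all of them M202(Sub1) at 6 days was the highest array, and DREB1B at 1 day was the other way round, with M202(Sub1) below M202. Both 1-day levels of DREB1G lie under the floor, and its value was 2.55 with them raised to it. DREB1C at -0.12 and the DREB2 genes DREB2A at 0.04 and DREB2B at -0.34 had similar time differences in both lines.

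Calcium sensors split in the same way within a family. Of 67 genes for calmodulin-like proteins and calcium-regulated kinases, 7 were at 1 or more and none at -1 or less, against 4.2% and 1.59% of all genes, while the median was -0.04. CML31 had 12.36 and 5.81 in M202(Sub1) at 6 days and 1 day, against 12.13 and 7.84 in M202, and CML15 had 12.75 and 6.82 in M202(Sub1), against 12.12 and 8.55 in M202. Most of their interaction values of 2.25 and 2.36 lies in the 1-day arrays, where M202(Sub1) was lower, while at 6 days it was higher by 0.23 for CML31 and by 0.62 for CML15. CML16, at 1.86, had 11.82 and 7.55 in M202(Sub1) and 10.77 and 8.37 in M202, with about as much of the gap at 6 days as at 1 day. CIPK6, a kinase bound by calcineurin B-like sensors, had 7.50 and 7.53 in M202(Sub1) and 6.19 and 7.48 in M202 (1.26), and so followed the pattern of the replication genes.

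ICL, the isocitrate lyase of the pathway that lets plants build sugar from fat, resembled CML31. It had 13.59 and 8.77 in M202(Sub1) at 6 days and 1 day, against 13.88 and 11.40 in M202, an interaction value of 2.34 from the 1-day gap. The transcription factor gene NAC3 had 11.01 and 7.94 in M202(Sub1) and 10.74 and 9.26 in M202 (1.58), again with the lines close at 6 days. LAC20, a laccase of lignin polymerisation, had 7.29 and 7.23 in M202(Sub1) and 7.39 and 8.97 in M202 (1.64), so the M202 array at 1 day was the one that stood apart.

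Heat shock proteins, chaperones of damaged proteins, had 5 of 21 genes at 1 or more and 18 above 0, against 4.2% and 52.1% of all genes. HSP26.7 had 10.33 and 7.48 in M202(Sub1) at 6 days and 1 day, against 4.42 and 4.77 in M202, where both values were under the floor, and its interaction value was 3.20. HSP17.4 had 8.60 and 6.12 in M202(Sub1) and 7.56 and 6.78 in M202 (1.69), and HSP26.2 had 8.87 and 7.27 in M202(Sub1) and 7.58 and 7.77 in M202 (1.79). For the last 2, M202(Sub1) was the higher line at 6 days and the lower at 1 day. Large chaperones were near 0, with HSP81-1 at -0.02, HSP81-3 at -0.03 and CLPB-C at 0.11. Heat shock factors, the transcription factors that bind the promoters of such genes, had 13 of 18 members below 0, against 47.9% of all genes. Their median was -0.29. Past 2-fold, however, 3 were at 1 or more and 1 at -1 or less, against 4.2% and 1.59% of all genes. HSFA3 had 10.07 and 9.96 in M202(Sub1) and 6.57 and 7.90 in M202 (1.44). HSFB4B was at 1.35, HSFB2A at 1.11 and HSFC2A at -1.15.

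Of 30 jasmonate genes, 2 were at 1 or more and 2 at -1 or less, with a median of -0.05. Over all genes these shares were 4.2% and 1.59%, and counts this small cannot settle whether the list stood apart. JAZ13, a member of the repressor family of jasmonate signalling, had 9.67 and 4.53 in M202(Sub1) at 6 days and 1 day, against 6.89 and 4.79 in M202, an interaction value of 3.03, and JAZ10 was at 1.97. AOS3, an allene oxide synthase of jasmonate synthesis, had 5.73 and 4.53 in M202(Sub1) and 7.35 and 4.39 in M202 (-1.77), and JAZ11 was at -1.27. The 1-day levels of JAZ13 and AOS3 lie under the floor in both lines. With these levels raised to it the interaction values were 2.77 and -1.62. All 4 genes had positive time differences in each line, so what differed was the size of the step. AOS2, with time differences of 2.70 in M202(Sub1) and 2.50 in M202, differed by 0.21.

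Of 70 genes in the abscisic acid list, 4 were at 1 or more and 1 at -1 or less, with a median of -0.06. These shares were close to the 4.2% and 1.59% of all genes. The list takes in PP2C phosphatases whatever their role, and 54 PP2C genes were kept, so the shares largely describe that family. PP2C30, a protein phosphatase of the family that abscisic acid receptors inhibit, had 9.48 and 5.32 in M202(Sub1) at 6 days and 1 day, against 6.96 and 5.60 in M202, an interaction value of 2.80. The 5.32 lies under the floor, and the value was 2.61 with that level raised to it. ABA8OX1, which breaks abscisic acid down, had 11.68 and 9.83 in M202(Sub1) and 8.98 and 8.58 in M202 (1.45). PP2C68 and PP2C32 were at 1.29 and 1.26 and PP2C45 at -1.10, and over 54 PP2C genes the median was -0.02. The high values were thus those of a few members.

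**Figure D4:**
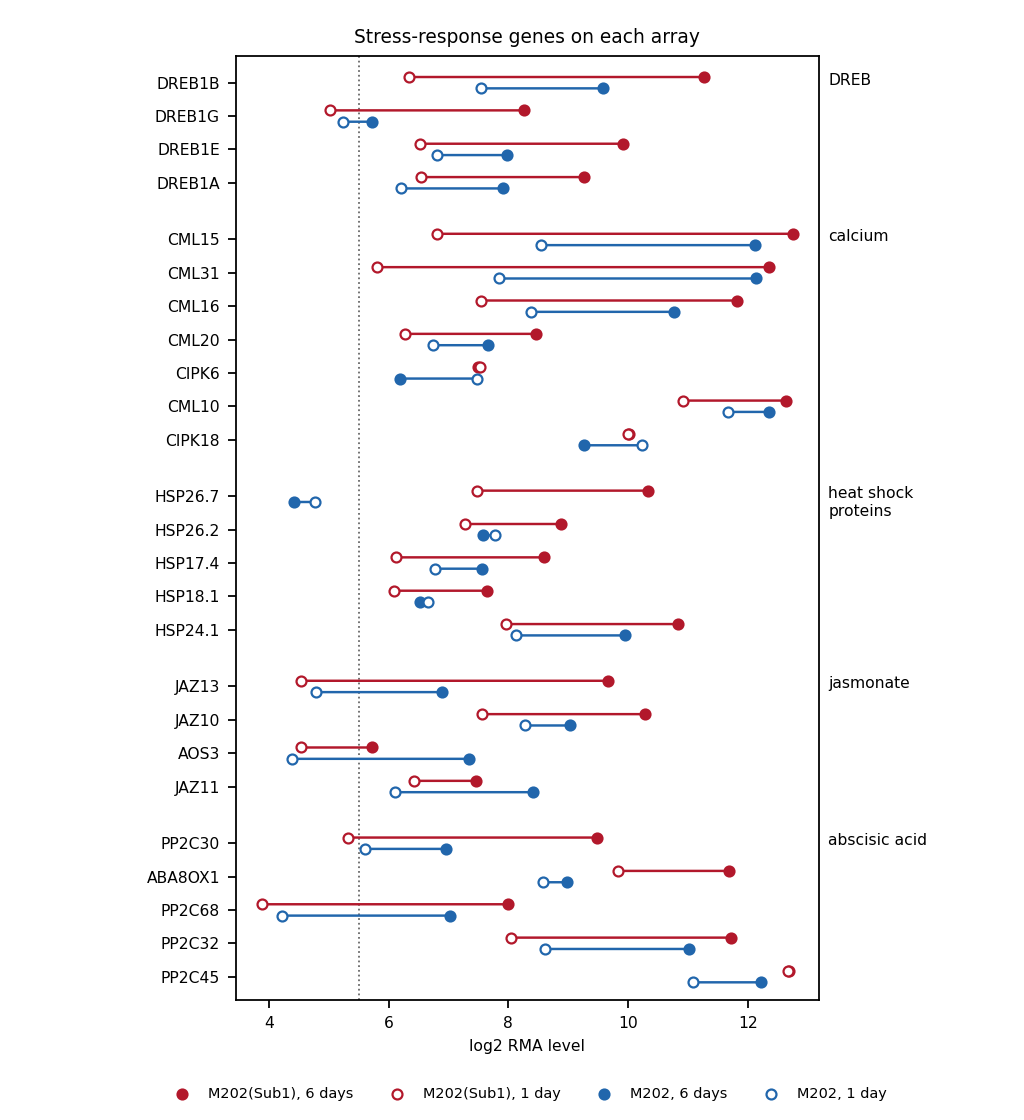
Log2 level on each array (horizontal axis) of the DREB, calcium, heat shock protein, jasmonate and abscisic acid genes past 2-fold in the interaction value. Red marks M202(Sub1) and blue, below it, M202, with filled circles for 6 days, open circles for 1 day and the floor of 5.51 dotted. In most of them the red line is the longer, and in CML31 and CML15 the filled circles lie closer together than the open ones.

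Cell wall genes had small shifts with a few larger ones. Of 22 expansins and xyloglucan enzymes, 3 were at 1 or more and 1 at -1 or less, beside 4.2% and 1.59% of all genes, with a median of 0.19. EXPA7, an expansin that loosens the wall during growth, had 10.06 and 9.76 in M202(Sub1) at 6 days and 1 day, against 8.57 and 9.87 in M202, an interaction value of 1.60. EXPA5 was at 1.74 and EXPA6 at 1.02, and in all 3 the M202 array at 6 days was the lowest. EXPB11, with 9.96 and 10.56 in M202(Sub1) and 11.22 and 10.68 in M202, was at -1.14. Of 46 cellulose and lignin genes, CSLA1 at 1.44, 4CL2 at 1.35 and LAC20 were the 3 high ones and LAC3 at -1.04 the low one.

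For auxin, 4 of 53 genes were at 1 or more and 2 at -1 or less, against 4.2% and 1.59% of all genes. Such small counts cannot settle whether the list stood apart. The auxin transporter gene PIN5 had 7.16 and 6.48 in M202(Sub1) at 6 days and 1 day, against 4.60 and 5.72 in M202 (1.80), whereas PIN5a had 6.89 and 8.21 in M202(Sub1) and 8.62 and 8.50 in M202 (-1.44). PIN5 rests on a value under the floor and was at 0.89 with such values raised to it. GH3.2, which conjugates auxin, was at -1.28 and GH3.4 at 1.14, so the family had no single direction. CKX5, a cytokinin oxidase, was at 1.06, and at 0.94, short of 2-fold, after quantile normalization.

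Of 31 genes for sucrose and starch use, 2 were past 2-fold, a share near the 5.8% of all genes, and both encode trehalose-6-phosphate phosphatases. TPP1 had 11.58 and 9.14 in M202(Sub1) at 6 days and 1 day, against 9.14 and 8.23 in M202 (1.53). TPP7, known from another submergence trait, germination under water, had 12.35 and 10.14 in M202(Sub1) and 11.50 and 10.52 in M202 (1.23). Of 4 ethanol fermentation genes none was 2-fold apart, with values from -0.08 for Adh2 to 0.73 for PDC1, although 3 of the 4 were 2-fold lower at 6 days in each line. Over all genes kept, 4.61% were 2-fold lower at 6 days in M202(Sub1) and 8.62% in M202. The hemoglobin gene NSHB1 had 6.01 and 8.58 in M202(Sub1) and 5.39 and 6.72 in M202 (-1.25).

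Metal homeostasis genes had 6 of 39 members at -1 or less and 1 at 1 or more, against 1.59% and 4.2% of all genes. NAS1, a synthase of the metal chelator nicotianamine, had 3.36 and 7.06 in M202(Sub1) at 6 days and 1 day, against 5.99 and 5.51 in M202, an interaction value of -4.18, and it was -2.02 with values under the floor raised to it. NAS2, a close copy, was at -1.54, NAAT1 at -1.09 and the iron transporter IRT1 at -1.04. NAS3, in contrast, was at 0.70, and the metallothionein MT2C at 1.76 was the high member.

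Groups without a gene past 2-fold were also seen. Of 24 ribosomal protein genes none was 2-fold apart, but 23 lay above 0, against 52.1% of all genes, within a narrow range of -0.11 to 0.58 and with a median of 0.33. The median level was lower at 6 days by less in M202(Sub1), with median time differences of -0.35 in M202(Sub1) and -0.65 in M202. Chlorophyll synthesis genes had 14 of 16 above 0 and a median of 0.26. Beside these small shifts, the ribosomal RNA control sets had a median of 0.49. Photosynthesis genes (10), antioxidant enzymes (26), gibberellin genes (8), ethylene genes (11), sugar transporters (14), potassium and sodium transporters (19), glycolysis genes (10) and circadian clock genes (7) also had none at 2-fold, with medians between -0.17 and 0.02, although that of glycolysis was 0.53 without possibly cross-hybridising sets. Of 38 lists in all, 26 held a gene past 2-fold and 12 held none.

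**Figure D5:**
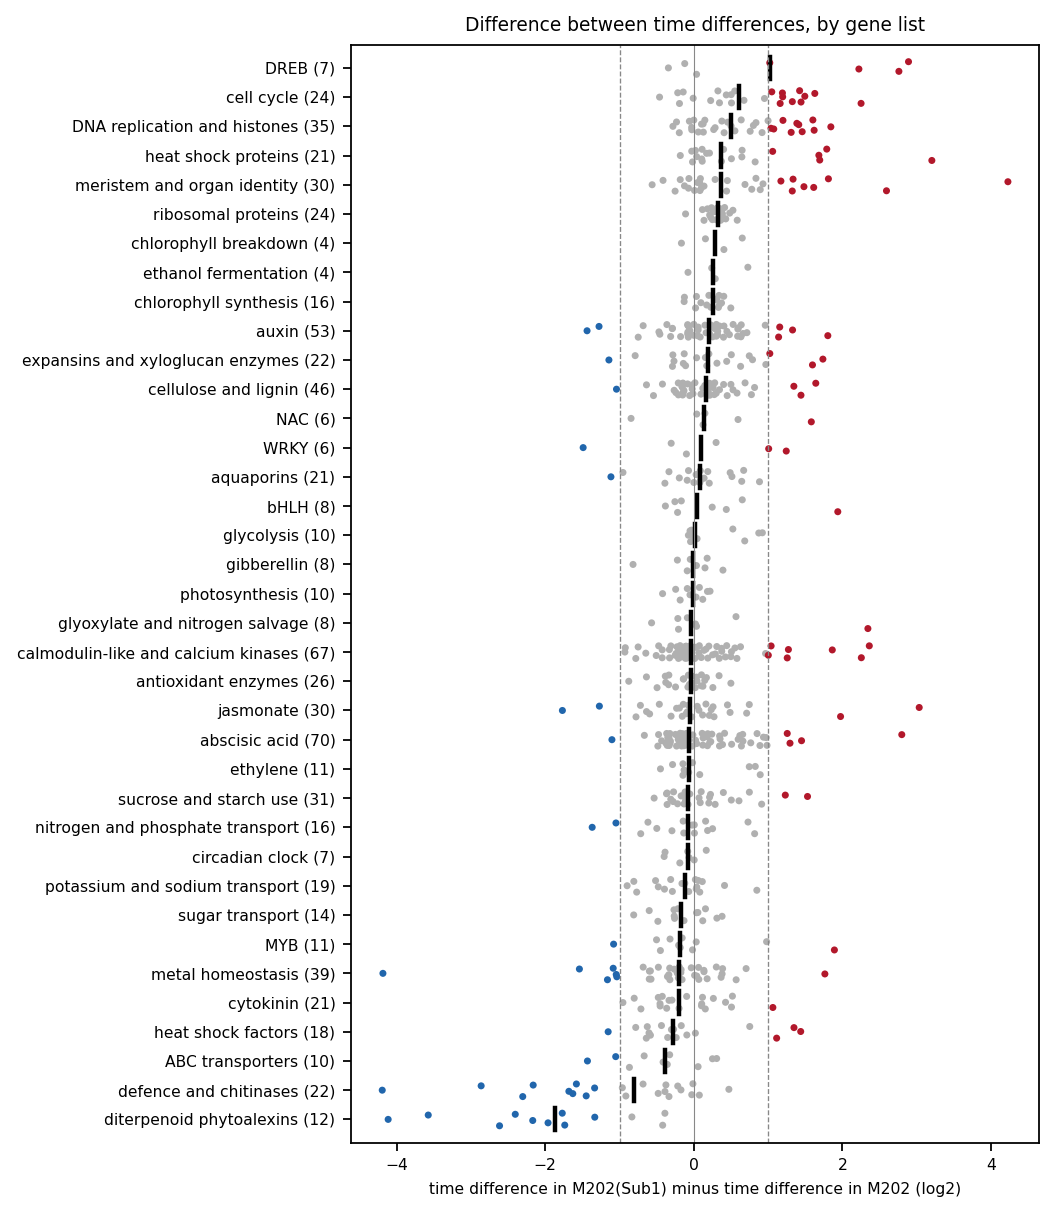
Interaction value (log2, horizontal axis) of each member of the gene lists with at least 4 genes kept, ordered by list median (black bar), with the number of genes kept in brackets. Members at 1 or more are red and those at -1 or less blue, and dashed lines mark these thresholds. Phytoalexin genes, with a median of -1.87, and DREB genes, with 1.02, lie at the ends, and ribosomal protein genes form a narrow cloud around 0.33.

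Further genes with high or low values lie in no list or in small ones. APY3, an apyrase that hydrolyses nucleotides, had 9.15 and 9.10 in M202(Sub1) at 6 days and 1 day, against 6.80 and 9.22 in M202 (2.48), and MKB3 had 8.02 and 7.41 in M202(Sub1) and 5.90 and 8.04 in M202 (2.75). BURP2 had 9.63 and 9.71 in M202(Sub1) and 8.52 and 10.75 in M202 (2.16), so the 2 M202(Sub1) levels lay between those of M202. The RNA-dependent RNA polymerase gene RDR4 was at 2.04. MYB2 at 1.89 and bHLH148 at 1.94 were transcription factor genes that were higher at 6 days in both lines, and CMT3, a DNA methyltransferase, was at 1.18 and lower at 6 days in both.

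On the low side, the ammonium transporter AMT3-2 had 8.43 and 7.62 in M202(Sub1) at 6 days and 1 day, against 10.11 and 7.94 in M202 (-1.37). The transporter gene ABCG48 had 8.02 and 5.64 in M202(Sub1) and 10.43 and 6.62 in M202 (-1.43). Both were higher at 6 days in both lines, more so in M202. The RNA helicase gene RH2 had 6.70 and 8.12 in M202(Sub1) and 9.55 and 9.24 in M202 (-1.74), and CASPL1U3 was at -1.64, both 2-fold lower at 6 days in M202(Sub1) only. WRKY62, a regulator of defence genes, was at -1.49, whereas WRKY71 and WRKY24 were at 1.24 and 1.01. PDX12 at -1.27 and MOF1 at -1.15 were 2-fold apart with time in neither line.

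Genes known by locus number alone reached values as large as any with a symbol. LOC4335798 had 10.47 and 5.15 in M202(Sub1) at 6 days and 1 day, against 7.09 and 6.23 in M202, an interaction value of 4.45. LOC4325662 had 13.15 and 5.70 in M202(Sub1) and 11.98 and 8.87 in M202 (4.34), and LOC4335417 had 9.37 and 4.16 in M202(Sub1) and 5.55 and 4.57 in M202 (4.22). The mean of its probe sets put LOC4325662 at 2.57. At the other end LOC4325422 had 5.77 and 6.59 in M202(Sub1) and 9.54 and 5.66 in M202, and its value of -4.70 was the lowest of the genes named. LOC4352488 had 9.05 and 9.06 in M202(Sub1) and 10.64 and 7.26 in M202 (-3.39), all above the floor.

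How firmly such values stand depends on level. Of the 648 high genes 74.4%, and of the 246 low genes 66.7%, were above the floor on all 4 arrays, against 93.6% of all genes kept. The median level was 7.67 for the high and 7.34 for the low genes and 9.10 for all. Where a gene had several probe sets above the floor, all had the same sign in 55 of 58 high genes and 24 of 28 low genes. This share was not worked out over all genes kept. The sets of a gene read the same RNA on the same arrays, so their agreement does not measure how firm a value is.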

How the data were processed

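The authors' deposited table gives a log2 value for each of 57381 probe sets on each array. Per the submitters' processing notes these came from RMA, whose version is not given in the sources used here. This method forces the arrays to a common distribution, which hides any overall shift in RNA amount, and compresses differences near background. The 123 control probe sets served as checks only. Of the others, 22436 are annotated with a single gene, 95 with several (not used), and 34727 are unnamed here. All 17905 genes were named through RefSeq (assembly ASM3414082v1), used only for names, chromosomes and gene order.

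Each gene was read from its brightest probe set (highest mean of the 4 values). It was kept if any array reached the 50th percentile of all values. The interaction value is M202(Sub1) 6 days minus 1 day, minus M202 6 days minus 1 day, counted at 2-fold. As each group has a single array, nothing was tested, no p-value is given, and the number of arrays limits the precision. Lists were matched by symbol patterns, but their counts are set beside shares of all genes kept, with or without a symbol. Members, lists and tests were chosen with earlier results of these data known, and some patterns were trimmed after values had been seen.

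Genes named are the 15 highest and 15 lowest among genes whose symbol is informative and whose probe sets above the floor share a sign, the largest 2-fold member of each list, up to 5 members of the 6 lists with most 2-fold members, the top 3 of each pattern over time, and the 3 highest and 3 lowest without a symbol. Other named genes are members of the lists described and were chosen after their values were seen. The alternatives tried were different level floors, averaging a gene's probe sets, leaving out possibly cross-hybridising sets, quantile normalization, median centring and other fold thresholds. The calculations were tested on simulated data. Python 3.11.15, numpy 2.4.6, pandas 2.3.3 and matplotlib 3.10.9 were used.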

Additional observations from a re-analysis of the deposited data

Results flagged for a closer look

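In 9 genes the lines were at least 2-fold apart with time in opposite directions. With 1 array a group, this difference was not tested. PBZ1 (interaction value -4.19), LOC4349113 (-3.94) and GER2 (-2.86) were lower at 6 days than at 1 day in M202(Sub1) and higher in M202. LOC4332778 (2.35), LOC4324999 (2.73), LOC4340708 (2.98), LOC4348377 (3.14), LOC4327203 (3.21) and OSH1 (4.23) were higher at 6 days in M202(Sub1) and lower in M202.

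PBZ1, GER2, LOC4332778 and LOC4327203 were above the floor on all 4 arrays. LOC4327203 had levels of 9.27 and 8.003 in M202(Sub1) at 6 days and 1 day, against 6.95 and 8.89 in M202. LOC4332778 had 8.81 and 7.68 in M202(Sub1) and 6.37 and 7.59 in M202, so its lines were alike at 1 day. Each of these 2 genes has 2 probe sets above the floor, and both sets had the same sign. LOC4349113 had 4.92 and 6.22 in M202(Sub1) and 6.98 and 4.34 in M202, with 2 arrays under the floor, and its value was -2.17 with such levels raised to the floor.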

How the results depend on the processing

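No paired analysis was possible because each group has 1 array and no result comes from a test. For the same reason no array could be left out. The counts of 648 high and 246 low genes went to 368 and 149 with the floor at the 75th percentile, to 76 and 32 at a 4-fold and to 1716 and 820 at a 1.5-fold threshold, and stayed within 1.5 times under the other 7 alternatives. Quantile normalization gave 575 and 271 genes, of which 573 and 246 were among those counted first. The 303 genes lower with time in M202 alone came to 146 with the higher floor and 17 at 4-fold, where 23 genes higher in M202(Sub1) alone outnumbered them, and the 97 higher in M202 alone to 50 and 23, and to 62 with all 4 values above the floor.

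The phytoalexin median of -1.87 was -1.54 with no floor, -3.57 with the higher floor (3 genes), -0.63 with all 4 values above the floor (4 genes) and -1.38 with values under the floor raised to it. The defence median of -0.80 was -0.48 with the higher floor. The DREB median of 1.02 was 0.53 with no floor, 2.22 with the higher floor and 1.62 for the mean of all probe sets. The cell cycle, DNA replication, ribosomal and heat shock protein medians moved by less than 0.24, the standard deviation over control probe sets, in every alternative.

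Of the 75 genes chosen by the naming rule none took the opposite sign in an alternative that gave it a value. This was largely built in, since the rule asked for 1 sign over the probe sets above the floor. Changing the floor that a gene must reach also leaves its own value as it was. Without possibly cross-hybridising sets only 67 of the 75 had a value. Sets of 11 of the 75 may cross-hybridise, by their names: LOC4325662, OSH1, BURP2, RDR4, ORC3, GRF1, BGLU30, TIP3-1, AMT3-2, CPS4 and Cht2. The other genes named were not followed through the alternatives. With values under the floor raised to it 21 of the 75 moved by more than 0.24, and AMT3-3 (-0.09), KSL4 (-0.52), KSL7 (-0.67), CYP701A9 (-0.58), ORC3 (0.30), PIN5 (0.89), PHT3 (0.67), BGLU30 (0.74) and TIP3-1 (-0.96) were no longer 2-fold apart, nor was CKX5 (0.94) after quantile normalization. Signal near background limits the sizes of these genes, and the lack of replicates limits all of them.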

Other observations

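Genes with like interaction values lay next to each other on the chromosomes in some cases, a scan added after the data were seen. Of the 246 low genes, 49 (19.9%) had a neighbour among the genes kept that was also low, and of the 648 high genes 74 (11.4%) had a high neighbour, beside shares of 1.59% and 4.2% of all genes that were low or high. A gene has a neighbour on each side, so these shares are no direct base for the counts. Without possibly cross-hybridising probe sets the shares were 40 of 221 (18.1%) and 77 of 592 (13.0%). The longest run was on chromosome 2, where LOC4329723 lay beside KSL7, CYP71Z7 and CPS2 of phytocassane synthesis, all between -4.11 and -1.77. On chromosome 4, MAS, KSL4 and CYP99A2 of momilactone synthesis formed a run of 3. Close copies also lay side by side, among them NAS1 and NAS2, GER2 and GER3, and HSP17.4 and HSP18.1, and how far probe sets of such copies detect each other was not tested.

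The share of low genes was 3.94% on chromosome 12, against 1.59% over all genes, with 30 of 761 genes. On chromosome 1 the share of high genes was 5.31%, against 4.2% over all genes, with 122 of 2297 genes. Each is the highest share of any chromosome.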
